A study of Homo sapiens with 6 samples.

Results

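The genes described here are MYC, its DNA-binding partner MAX, the antagonists MXD1, MXI1 and MNT, and 33 nucleolar genes of ribosome biogenesis that make, modify, cut and assemble ribosomal RNA. They were taken by symbol as a list of 38 genes from the 60662 genes with a value in each library. The rule named symbols and no measured value, but the list was chosen with earlier results of these data known. Each symbol matched 1 Ensembl gene, and all 38 passed the filter on low values, together with 16901 genes in all. RNA-seq was done on HCT116 cells, an established human colorectal carcinoma line grown in McCoy's medium with serum, which carried 1 of 2 constructs after lentiviral transduction. In the shCtrl group the stably carried plasmid gave a nontarget shRNA, and in the GMDS-AS1 KD group it gave shRNA2 against the long noncoding RNA GMDS-AS1. Each group had 3 libraries, labelled as biological replicates. Both groups therefore carried an integrated shRNA vector, and the knockdown rested on a single hairpin sequence, so that an effect of GMDS-AS1 and an effect of this hairpin cannot be told apart.

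MYC is a basic helix-loop-helix transcription factor that binds DNA as a heterodimer with MAX, typically at the E-box CACGTG, while the MXD proteins and MNT compete for MAX and repress. Ribosome biogenesis genes are among the best known targets of MYC: RNA polymerase I transcribes the long precursor rRNA in the nucleolus, guide RNPs of the box C/D and box H/ACA classes modify it, and assembly factors cut and fold it into the small and the large subunit. In colorectal cancer MYC is a classical output of Wnt signalling, and nucleolar activity is typically high in dividing tumour cells.

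The E-box is shown first, because it is the sequence to which MYC and MAX bind. The list was taken by symbol and not by this sequence. It holds genes known as MYC targets, however, so its share of E-boxes is not independent of the choice of genes. RefSeq promoter windows of GRCh38.p14, from 250 bases before to 50 bases after each gene start, were found for 32 of the 38 members. The letters CACGTG, which read the same on both strands, were present in a window of 14 of these 32 members, or 43.8%. They were present in a window of 12.4% of 11046 tested genes and of 8.77% of all 27305 genes with a window. Counted by window, 7.26% of all 35116 windows held them. Of the 14 sites, 5 lay before the gene start and the others within 35 bases after it. The sites of 10 of these 14 members are printed with 12 bases on each side, in the direction of the gene, with the E-box in capitals. They are the 8 members of the 14 with the highest scaled log2 fold changes and, as DDX21 and GAR1, those that did not pass the test as higher:
NOP14 (chr4:2963374-2963403, minus strand): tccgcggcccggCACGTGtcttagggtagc
MRTO4 (chr1:19251807-19251836, plus strand): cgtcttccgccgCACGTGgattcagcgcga
PES1 (chr22:30591880-30591909, minus strand): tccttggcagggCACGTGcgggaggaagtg
MNT (chr17:2401236-2401265, minus strand): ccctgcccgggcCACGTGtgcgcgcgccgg
UTP4 (chr16:69132621-69132650, plus strand): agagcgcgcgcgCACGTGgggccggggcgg
BYSL (chr6:41921515-41921544, plus strand): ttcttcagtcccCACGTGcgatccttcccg
GNL3 (chr3:52686026-52686055, plus strand): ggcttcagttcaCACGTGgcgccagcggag
FBL (chr19:39846356-39846385, minus strand): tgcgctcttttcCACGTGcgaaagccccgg
DDX21 (chr10:68956604-68956633, plus strand): ggccgggtgtccCACGTGgtccccggcgac
GAR1 (chr4:109815781-109815810, plus strand): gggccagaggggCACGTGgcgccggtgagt

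A match of these letters is a description and not evidence of binding. The median log2 fold change, KD minus shCtrl on scaled TPM, was 0.49 in the 14 members with an E-box and 0.35 in the 18 without one. On these scaled values 12 of the 14 passed the test as higher and 15 of the 18, beside 28.7% of all genes tested. GAR1 and DDX21 hold the motif and did not pass, and NOP16, the member with the largest difference, had none in its window.

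The deposited unit was TPM, a share of transcripts that is set per transcript length and sums to between 991059 and 992992 in each library. The number of reads behind a value is not known from TPM. Libraries correlated with r of 0.985 to 0.987 within a group and 0.956 to 0.958 between the groups. The targeted RNA, listed as GMDS-DT, was at 1.66, 2.21 and 1.34 TPM in shCtrl and at 0.88, 0.91 and 0.79 TPM in KD. The groups did not overlap, and the log2 fold change was -0.41 ± 0.14 (SE, limma, Benjamini-Hochberg adjusted p = 0.0412), a call that was lost when any library other than the third shCtrl library was left out (limma adjusted p = 0.0753 to 0.107). Of 10 colorectal epithelial markers, 6 were at 1 TPM or more in every library, among them EPCAM and KRT8, while CDX1, VIL1 and LGALS4 stayed under 1 TPM. Of 8 markers of leukocytes, endothelium and fibroblasts, 7 were under 1 TPM in every library, and COL1A1 had 10.0 to 14.4 TPM.

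The scale decides much of what follows. As deposited, the median of all tested genes was lower in KD, with a log2 fold change of -0.195, and 40.3% of genes passed the test as lower against 16.3% as higher. After scaling by a trimmed mean of log ratios the median gene stood at 0.00, and 28.7% passed as higher against 25.8% as lower. Fold changes and tests are given below on the scaled values, as log2 of TPM + 1, unless the deposited TPM are named. A member is said to rise or fall only where it passed the test on both scales. Because scaling moved all genes up in KD, the deposited values decided a rise and the scaled values a fall. TPM are shares of a library, so the total RNA per cell is seen on neither scale, and fewer cells that express a gene and less of its RNA per cell cannot be told apart.

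On the scaled values 33 of the 38 members passed the test as higher, 1 as lower and 4 in neither direction, beside 28.7% higher among all genes tested. Their median log2 fold change was 0.42. On the TPM as deposited 18 members were higher, beside 16.3% of all genes, 4 were lower, beside 40.3%, and 16 passed in neither direction, with a median of 0.17. All 18 were also called on the scaled values, as were all 2756 genes called higher as deposited. Scaling raised KD relative to shCtrl for every gene, so this is not a second test. Most members are highly expressed, and high expression went with higher calls among all genes: of the 3865 tested genes with a shCtrl mean of at least 30 TPM, a level set after the values were seen, 52.3% passed as higher and 24.7% as lower after scaling, and 30.8% and 42.5% as deposited. Of the 33 members at that level, 29 passed as higher and 1 as lower after scaling, and 18 and 4 as deposited.

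The difference was modest in size for most members. Only NOP16 changed at least 2-fold, beside 7.17% of all genes in either direction and 2.96% higher. On the deposited TPM, 21 members were higher and 5 lower in KD with no overlap between the 3 and 3 libraries, beside 63.7% of all genes without overlap in either direction and 18.8% higher. The remaining 12 members overlapped.

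**Figure D1:**
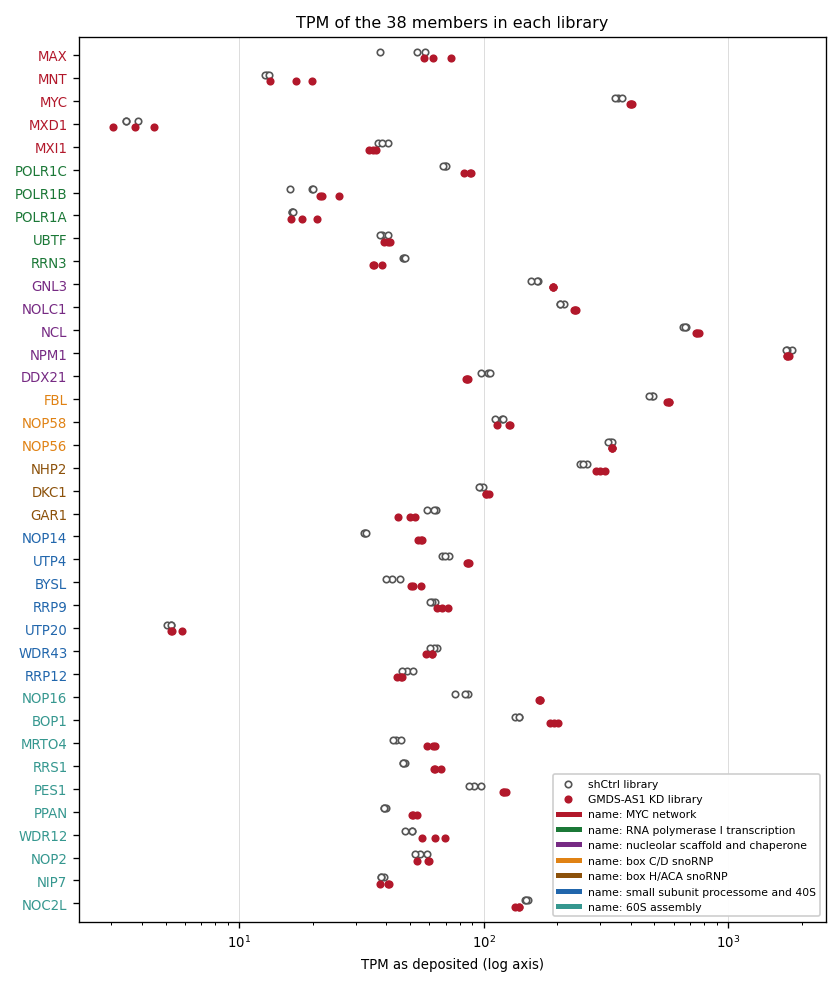
TPM as deposited (log axis) of each member in the 3 shCtrl libraries (open points) and the 3 GMDS-AS1 KD libraries (filled points), with gene names coloured by role. NOP16, NOP14 and the PES1, BOP1 and WDR12 points of KD lie to the right of those of shCtrl, RRN3, GAR1 and DDX21 lie to the left, and NPM1 overlaps at the highest level.

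MYC itself was at 354.7, 368.0 and 345.9 TPM in shCtrl and at 404.6, 396.7 and 402.9 TPM in KD. Every KD library was above every shCtrl library. MYC rose, with a log2 fold change of 0.42 ± 0.02 (SE, limma adjusted p = 1.44e-05), which was 0.17 on the deposited TPM (limma adjusted p = 0.00215). The call held under all 15 alternative settings. The mean TPM of MYC, a share of the library, was 12.7% higher in KD as deposited and 1.341 times as high after scaling.

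MAX, the obligate partner, had 37.8, 57.8 and 53.2 TPM in shCtrl and 61.9, 73.3 and 57.3 TPM in KD. The first shCtrl library was low and the groups touched, with the third KD library below the second shCtrl library. The log2 fold change of 0.63 ± 0.17 passed the test after scaling (limma adjusted p = 0.0188) and did not as deposited (0.38, limma adjusted p = 0.0882). Without the second KD library it was 0.52 with a limma adjusted p of 0.0581.

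The antagonists differed among themselves. MNT, a MAX-binding repressor, had 12.98, 12.81 and 13.31 TPM in shCtrl and 17.1, 13.3 and 19.9 TPM in KD. Its second KD library lay almost at the shCtrl level, and its log2 fold change was 0.56 after scaling (limma adjusted p = 0.00852) and 0.33 as deposited (limma adjusted p = 0.0716). MXI1, with 36.9 to 40.7 TPM in shCtrl and 34.0 to 36.3 TPM in KD, passed on neither scale, and its sign turned from 0.11 scaled to -0.13 as deposited. MXD1 was low, at 3.05 to 4.48 TPM, with overlapping groups and no call. MYC was 6.21 to 6.92 times the summed TPM of MXD1, MXI1 and MNT in shCtrl and 6.82 to 7.88 times in KD, with overlap, and 6.37 to 9.39 against 5.41 to 7.04 times the TPM of MAX.

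**Figure D2:**
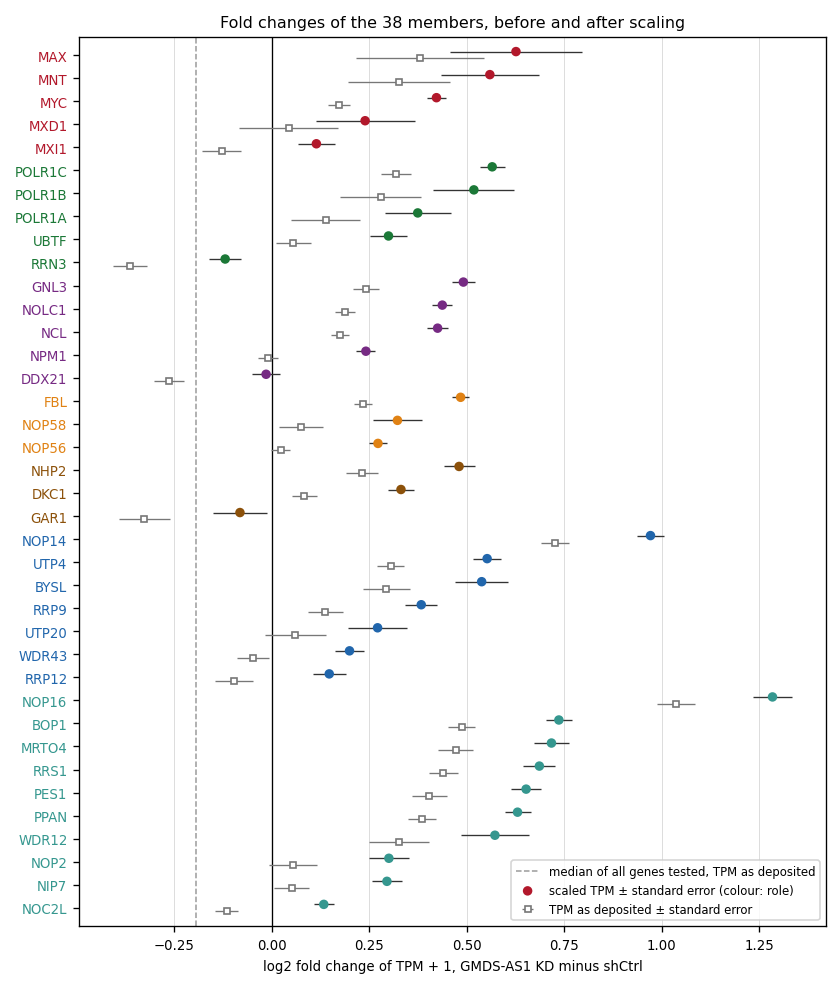
Log2 fold change of TPM + 1 (KD minus shCtrl) of each member with its standard error, on scaled values (filled, coloured by role) and as deposited (open squares). All members shift left together without scaling, to -0.36 for RRN3 and 1.04 for NOP16, and the dashed line is the median of all genes as deposited, -0.195.

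Among the 5 members that transcribe the rRNA precursor, POLR1C and RRN3 moved in opposite directions. POLR1C, a subunit shared by RNA polymerases I and III, had 69.5, 70.4 and 68.0 TPM in shCtrl and 89.0, 82.9 and 88.0 TPM in KD. All KD libraries were above all shCtrl libraries, and POLR1C rose with a log2 fold change of 0.57 ± 0.03 (limma adjusted p = 1.36e-05). RRN3, which recruits RNA polymerase I to the rDNA promoter, had 46.7, 47.1 and 47.8 TPM in shCtrl and 35.6, 35.4 and 38.3 TPM in KD.

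RRN3 was thus lower in each KD library. It fell on both scales, with -0.12 ± 0.04 after scaling (limma adjusted p = 0.0436) and -0.36 as deposited (limma adjusted p = 0.000422). The scaled call was near the threshold and was lost without the second or the third shCtrl library, or the first or the second KD library, with limma adjusted p of 0.0535 to 0.132. RRN3 has 3 annotated pseudogenes, whose summed TPM was at most 12.9% of its own. The catalytic subunits POLR1A and POLR1B and the rDNA-binding factor UBTF had scaled log2 fold changes of 0.37, 0.52 and 0.30 that passed the test, and none of them passed on the deposited TPM (0.14, 0.28 and 0.06).

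The nucleolar scaffold and chaperone genes included the 2 most abundant members, NPM1 and NCL. NPM1, a nucleolar histone and ribosomal protein chaperone, alone made up 29.2% to 30.3% of the summed TPM of all members in shCtrl and 26.6% to 27.0% in KD. It had 1822, 1748 and 1727 TPM in shCtrl and 1776, 1742 and 1745 TPM in KD. The groups overlapped fully as deposited, and NPM1 was higher only after scaling (0.24 scaled, limma adjusted p = 0.000188, against -0.01 as deposited, limma adjusted p = 0.784).

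NCL, the RNA-binding nucleolin, rose from 672, 654 and 667 TPM to 740, 760 and 750 TPM, with a scaled log2 fold change of 0.43 ± 0.03 (limma adjusted p = 2.26e-05). GNL3, the nucleolar GTPase nucleostemin, and NOLC1, a chaperone of snoRNPs, also rose, by 0.49 and 0.44 on the log2 scale. DDX21, an RNA helicase of rRNA processing, went the other way on the deposited TPM, from 103.9, 106.6 and 98.1 to 84.7, 86.6 and 85.4 TPM. Its KD libraries were all below its shCtrl libraries, and it was lower as deposited (-0.26, limma adjusted p = 0.00112) and under upper-quartile scaling (-0.12, limma adjusted p = 0.0329). With the trimmed mean scaling it stood at -0.02 with no call (limma adjusted p = 0.748).

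Of the 3 box C/D core proteins, FBL, the methyltransferase fibrillarin, rose from 487, 492 and 474 TPM to 573, 572 and 565 TPM, with a log2 fold change of 0.48 ± 0.02 (limma adjusted p = 5.97e-06). The groups were far apart. Its partners NOP56 and NOP58, which hold the guide RNA, had 324 to 336 TPM against 334 to 337 TPM and 111 to 120 TPM against 113 to 128 TPM, so that both overlapped. They passed the test after scaling, at 0.27 and 0.32, and not as deposited, at 0.02 and 0.07.

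The 3 box H/ACA proteins were split as well. NHP2 rose from 248, 265 and 256 TPM to 288, 300.3 and 315 TPM, with a log2 fold change of 0.48 ± 0.04 (limma adjusted p = 7.78e-05). DKC1, the pseudouridine synthase dyskerin, went from 96.0 to 99.5 TPM up to 101.9 to 105.5 TPM without overlap, which was a call after scaling (0.33) and not as deposited (0.08, limma adjusted p = 0.0586). GAR1, their partner in the mature particle, had 58.7, 64.0 and 62.4 TPM in shCtrl and 52.2, 50.2 and 44.7 TPM in KD. It was lower in every KD library as deposited (-0.33, limma adjusted p = 0.00467) and did not pass after scaling (-0.08, limma adjusted p = 0.359).

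All 7 members of the small subunit processome and of 40S maturation passed as higher after scaling, beside 28.7% of all genes tested. Their median was 0.38. As deposited 4 of them passed as higher, beside 16.3% of all genes. Among genes with a shCtrl mean of at least 30 TPM these shares were 52.3% and 30.8%. NOP14, a scaffold of the processome, had 32.8, 32.6 and 33.0 TPM in shCtrl and 55.2, 53.7 and 55.9 TPM in KD. Every KD library was far above every shCtrl library, and NOP14 rose with a log2 fold change of 0.97 ± 0.03 (limma adjusted p = 1.89e-06), 0.73 as deposited. UTP4 (0.55), the late-stage factor BYSL (0.54) and RRP9 (0.38), which binds the U3 guide RNA, also rose. UTP20, WDR43 and RRP12 had 0.27, 0.20 and 0.15 after scaling, and as deposited 0.06, -0.05 and -0.10 with no call, so that the sign of WDR43 and RRP12 turned. Under upper-quartile scaling they had no call either (limma adjusted p = 0.0768, 0.0746 and 0.38). UTP20 lost its call without any shCtrl library or without the third KD library (limma adjusted p = 0.0533 to 0.079), and RRP12 without the first or the third library of either group (limma adjusted p = 0.0564 to 0.105). UTP20 was also the lowest member outside the MYC network, at 5.05 to 5.85 TPM.

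The 10 members of 60S assembly had the highest median of the 7 role groups, 0.64. All 10 passed as higher after scaling, beside 28.7% of all genes tested. As deposited 7 passed as higher and NOC2L as lower, beside 16.3% and 40.3% of all genes. Among genes with a shCtrl mean of at least 30 TPM, as all 10 had, 52.3% were higher after scaling and 30.8% as deposited. NOP16, a nucleolar factor of large subunit assembly, had 76.5, 86.6 and 84.2 TPM in shCtrl and 170.3, 168.5 and 171.0 TPM in KD. The groups were widely separated, and the mean as deposited was 2.06 times as high in KD. NOP16 rose with a log2 fold change of 1.28 ± 0.05 (limma adjusted p = 2.68e-06), 1.04 as deposited.

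The 3 subunits of the complex of PES1, BOP1 and WDR12, which is needed to mature the large subunit rRNAs, rose together. BOP1 had 139.6, 135.0 and 140.0 TPM in shCtrl and 194.7, 186.9 and 200.7 TPM in KD, a log2 fold change of 0.74 ± 0.03 (limma adjusted p = 4.93e-06). PES1 went from 87.2 to 97.2 TPM up to 120.2 to 124.1 TPM (0.65), and WDR12 from 47.5 to 51.0 TPM up to 56.1 to 69.5 TPM (0.57). Their groups did not overlap. MRTO4, RRS1 and PPAN, further large subunit factors, rose by 0.72, 0.69 and 0.63. NOP2, an rRNA methyltransferase, and its neighbour in assembly NIP7 passed only after scaling, at 0.30 and 0.295, against 0.05 for both as deposited. NOC2L had 148.4 to 152.6 TPM in shCtrl and 135.0 to 140.1 TPM in KD, and its call turned from higher (0.13) to lower (-0.12, limma adjusted p = 0.0126) without scaling. Under upper-quartile scaling NOC2L was at 0.03 with no call (limma adjusted p = 0.346).

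Ratios of members within a library do not depend on the scaling. The pairs were picked after the values were seen, so they are given without a test. The TPM of NHP2 was 4.11 to 4.22 times that of GAR1 in the shCtrl libraries and 5.52 to 7.05 times in the KD libraries. FBL was 1.46 to 1.48 times NOP56 in shCtrl and 1.69 to 1.72 times in KD. These are proteins of the same particles, and in both pairs the KD libraries lay above the shCtrl libraries.

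The same was seen for POLR1C over RRN3, at 1.42 to 1.495 in shCtrl and 2.30 to 2.50 in KD, and for NOP14 over RRP12, at 0.63 to 0.71 and 1.20 to 1.22. NOP14 RNA was therefore the less abundant of that pair in shCtrl and the more abundant in KD. The summed TPM of all 38 members was 5881 to 6020 in shCtrl and 6553 to 6574 in KD, or 0.593% to 0.607% and 0.660% to 0.662% of the library total.

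**Figure D3:**
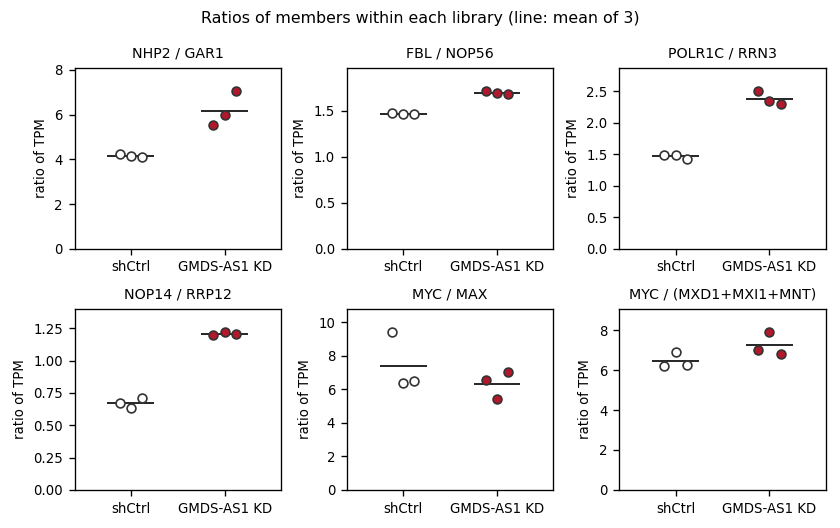
Ratio of TPM between members within each library, 1 point per library with the mean of 3 as a line, for shCtrl and GMDS-AS1 KD. The ratios NHP2 over GAR1, FBL over NOP56, POLR1C over RRN3 and NOP14 over RRP12 do not overlap between the groups, while both MYC ratios do.

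Some members share exon bases with another expressed gene in the GENCODE annotation of GRCh38, and the sources used here do not state whether reads were counted by strand. This applied to 12 members with a partner that reached 5 TPM in at least 1 library. For DKC1 the only such partners were the snoRNA genes SNORA36A and SNORA56, which were listed at 0 in most libraries. NOP16 (chr5:176383938-176388975) shares 227 bases, 7.93% of its exon bases, with HIGD2A on the opposite strand, a mitochondrial gene that went from 88.3 to 91.7 TPM up to 167 to 181 TPM (log2 fold change 1.21). What part of the NOP16 difference came from shared reads was not tested. For NOP14 (chr4:2937933-2963385) the partner moved the other way: NOP14-AS1, with 605 shared bases, fell by 0.65 on the log2 scale. For POLR1C both partners, YIPF3 and XPO5, were lower (-0.44 and -0.47), and RMND5B opposite NHP2 was lower too (-0.61). Other partners were higher after scaling. On the same strand, SNRNP27 shares 237 bases with MXD1 (0.87) and P2RY11 shares 97 bases with PPAN (0.66). On the opposite strand, GLT8D1, EMC1 and COG8, which overlap GNL3, MRTO4 and NIP7, had 0.44, 0.305 and 0.22. What shared reads added to these members was not tested. NOP2 and PPAN share 54.4% and 56.0% of their exon bases with a gene model on the same strand, so their split between models is uncertain.

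The wider pathway was read from 8 lists of 209 other genes, of which 207 were tested. After scaling 150 passed as higher and 18 as lower, with a median of 0.33, beside 28.7% and 25.8% of all genes. As deposited 87 were higher and 44 lower, beside 16.3% and 40.3% of all genes, with a median of 0.09. The counts of each list are to be read against the same shares, and the lists were not matched for level. Among tested genes with a shCtrl mean of at least 30 TPM, the shares were 52.3% higher and 24.7% lower after scaling. As deposited they were 30.8% and 42.5%. Each list had more genes higher than lower on the scaled values, with medians between 0.28 and 0.51. This excess of higher over lower genes within a list was smaller or absent as deposited. The deposited medians of the lists, 0.036 to 0.269, were all above that of all genes, -0.195.

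In the MYC network 10 of 12 other tested genes were higher and 1 lower after scaling, against 4 and 3 as deposited. MXD4, another MAX-binding antagonist, rose from 13.5 to 14.4 TPM up to 22.6 to 23.0 TPM (log2 fold change 0.90), and the glucose-responsive factor MLXIP rose by 0.62. MYCL, a paralogue of MYC, fell from 6.27 to 7.20 TPM to 2.98 to 3.29 TPM (-0.67). The canonical MYC targets outside the nucleolus had 16 of 23 higher and 1 lower after scaling, and 13 and 7 as deposited. SRM, spermidine synthase, rose from 34.5, 33.7 and 32.8 TPM to 119.3, 127.9 and 118.8 TPM, the highest log2 fold change of the 8 lists at 2.07 ± 0.04 (limma adjusted p = 4.52e-07). The mitochondrial chaperonin HSPE1 rose by 1.304, while CAD, of pyrimidine synthesis, fell by 0.34.

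The polymerase lists were mixed. Of 16 other RNA polymerase I genes 9 were higher and 5 lower after scaling, and 8 and 6 as deposited, so that subunits of the same enzyme were found on both sides. POLR1G and POLR2H rose by 0.91 and 0.87, POLR1F fell by 0.64, and POLR2L, a subunit common to all nuclear polymerases, fell from 358 to 400 TPM to 208 to 217 TPM (-0.59). Of 22 RNA polymerase III genes 15 were higher and 2 lower after scaling, which became 7 and 4 as deposited. MAF1, the repressor of this polymerase, rose from 41.9 to 44.8 TPM up to 92.9 to 98.4 TPM (1.37) and the subunit POLR3D by 1.03, whereas the subunits POLR3B and POLR3C fell by 0.90 and 0.58.

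Among other factors of the small subunit, 38 of 52 were higher and 2 lower after scaling, and 17 and 9 as deposited. NOB1, the nuclease that finishes the small subunit rRNA, and IMP3 rose by 1.04 and 1.02, and RCL1 and AATF fell by 0.22 and 0.16. Of 55 other large subunit factors 42 were higher and 4 lower after scaling, and 25 and 9 as deposited. The RNA helicase DDX54 rose from 48.4 to 57.0 TPM up to 122.8 to 133.3 TPM (1.499), and DDX24 by 1.10, while EIF6, which keeps the subunits apart, and WDR18 fell by 0.39 and 0.42.

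Of the 10 snoRNP assembly factors 6 were higher and 2 lower after scaling, while as deposited 4 were higher and 4 lower. The exosome list had 14 of 17 higher and 1 lower after scaling, and 9 and 2 as deposited. NOP10, the fourth box H/ACA core protein, rose by 0.52, and SHQ1, an assembly factor of box H/ACA particles, by 0.67. TAF9, better known as a TFIID subunit, and ZNHIT6 fell by 0.56 and 0.22. Of the exosome, the ring subunit EXOSC4 rose from 89.2 to 90.0 TPM up to 142.7 to 161.9 TPM (1.00), EXOSC8 fell by 0.42, and EXOSC6 was listed at 0 in all shCtrl libraries and at 0.54 to 1.40 TPM in KD.

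**Figure D4:**
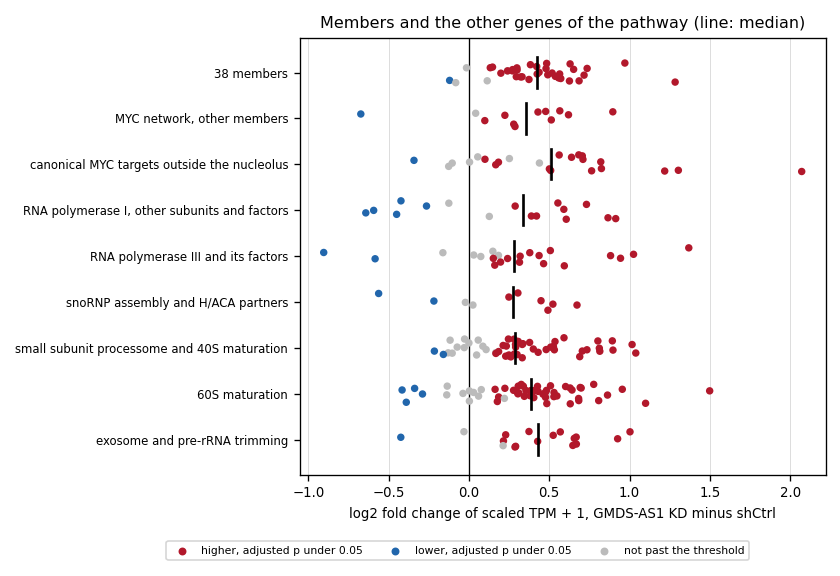
Log2 fold change of scaled TPM + 1 (KD minus shCtrl) of the 38 members and of the tested genes of the 8 other lists, 1 point per gene, coloured by call (limma, adjusted p under 0.05), with the median as a line. The medians lie between 0.28 and 0.51 in every list, SRM is the point at 2.07, and EXOSC6 is drawn at its fitted value although it was listed at 0 in shCtrl.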

How the data were processed

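RNA of HCT116 cells with shCtrl or GMDS-AS1 shRNA2, 3 libraries each, was poly-A selected, prepared with the TruSeq RNA kit and sequenced in paired reads. The authors deposited TPM per Ensembl gene, made with Cufflinks and RSEM per their methods, and the submitters' processing notes name Trimmomatic 0.27, TopHat2 2.1.1 and GRCh38.p13. The role of each tool, the annotation version and the use of strand are not given in the sources used here. TPM keeps no depth, so precision rests on the 3 libraries per group. P-values measure the spread between these libraries, and nothing further says whether they came from separate transductions.

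Another 2 genes with broken lines held no value. The filter kept genes that reached 0.5 TPM in 3 or more libraries. TPM were divided by trimmed mean factors (30% of log ratios and 5% of mean values trimmed from each end), and log2(TPM + 1) was modelled in R 4.3.3 by limma 3.58.1, using a variance trend and Benjamini-Hochberg adjustment over all 16901 genes and a threshold of 0.05. A pseudocount of 1 understates fold changes of low genes. The fit was tested on simulated data. Samples were grouped by their labels. Other scalings, pseudocounts and filters, a replicate block, no variance trend and the omission of single libraries were tried as alternatives. Positions and exon overlaps came from GENCODE v29, E-boxes from RefSeq promoters (GRCh38.p14), with Python 3.11.15.

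The members, role groups and the 8 lists were chosen with earlier results of these data known. Named genes were all members, the targeted gene and, in each list, up to 2 highest and 2 lowest log2 fold changes among genes past the threshold without overlap between groups. HIGD2A and the other overlapping genes were chosen by position, and the ratios and the level of 30 TPM after values were seen.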

Additional observations from a re-analysis of the deposited data

How the results depend on the processing

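The scaling was the setting that moved the results most. With TPM as deposited, members called higher went from 33 to 18 and members called lower from 1 to 4, all genes called higher from 4844 to 2756 and lower from 4355 to 6814, and the other pathway genes from 150 to 87 higher and from 18 to 44 lower. The sign turned for MXI1 (-0.13), NPM1 (-0.009), NOC2L (-0.12), RRP12 (-0.10) and WDR43 (-0.048), since the deposited values lack the shift of -0.25 (log2) between the groups' scaling factors. Upper-quartile scaling, with a shift of -0.15, gave 29 higher and 2 lower members (RRN3 and DDX21), with NOC2L, RRP12, UTP20 and WDR43 no longer called, and median-of-ratios scaling 33 higher. Members called lower were 0 with no filter, with no variance trend and with the replicate block, and 0 to 1 when each library was left out, when 31 to 32 were called higher. The cause of these losses of RRN3 was not tested. NOP16 was the only member past 2-fold under all 15 alternatives. Of the 33 members called higher, 18 kept their call under all 15. These are the 18 called higher as deposited, beside 16.3% of all genes, and the other settings removed none of them. The share of all genes that kept a call under all 15 is not given here.

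The targeted RNA, GMDS-DT, kept its sign. Its log2 fold change of -0.41 lost its call with no filter (-0.41, limma adjusted p = 0.133) and with the replicate block (-0.41, limma adjusted p = 0.0523), and ranged from -0.514 to -0.302 when each library was left out (limma adjusted p = 0.0261 to 0.107). GMDS-DT was not tested at a filter of 1 TPM in every library.

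Libraries of the groups share only a replicate number. The deviations of same-numbered libraries correlated with 0.029, -0.038 and 0.014, which gives no sign of pairing. With the replicate block 32 members were higher and 0 lower, and 4569 genes were higher and 4071 lower. RRN3 and RRP12 lost their calls under it (limma adjusted p = 0.0575 and 0.0556), and no other member's call changed.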

Other observations

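Several members host genes of snoRNAs, or in POLR1C of a scaRNA, the small guide RNAs. SnoRNAs are the guides of the same box C/D and box H/ACA particles. In the annotation 26 such genes, snoRNAs and the scaRNA together, lay within 8 of the members, and 22 of them were listed at 0 in every library. The other 4 were above 0 in at most 2 of the 6 libraries, so that these poly-A selected libraries give no comparison of guide RNAs between the groups. NPM1 has 45 annotated pseudogenes, whose summed TPM of 5.03 to 6.30 was at most 0.364% of that of NPM1.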
